A study of Homo sapiens with 4 samples.

Results

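Transcripts of 9 genes that write, maintain, read or remove DNA methylation were compared between the enzalutamide-resistant subline LN-35 and its parent LNCaP. The genes were chosen by symbol and make up 9 of the 20332 genes in the count table. They are the methyltransferase genes *DNMT1*, *DNMT3A* and *DNMT3B*, the *DNMT1* cofactor gene *UHRF1*, the dioxygenase genes *TET1*, *TET2* and *TET3*, the DNA glycosylase gene *TDG*, and *MBD2*, whose product reads methylated DNA and is not itself a methylation enzyme. LN-35 (2 libraries), labelled as LNCaP-resistance cells treated with enzalutamide, was derived by stepwise increase of this antiandrogen after adaptation to charcoal-stripped serum. LNCaP (2 libraries), labelled WT, is an established, androgen-dependent human prostate cancer line. LN-35 is 1 subline, and the effects of long culture, serum and drug cannot be told apart in the comparison. The labels give the same serum-containing medium for both lines. They do not say whether the replicates were grown separately, so each p reflects no more than the variation among the 4 libraries, which may be technical.

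In mammalian cells a methyl group is placed on cytosine, almost always in the dinucleotide CpG. DNMT3A and DNMT3B place new marks, whereas DNMT1, brought to newly replicated DNA by UHRF1, copies the existing pattern to the daughter strand. TET enzymes oxidize the methyl group in a reaction that needs 2-oxoglutarate and iron, and TDG cuts out the further oxidized bases so that repair restores a plain cytosine. MBD2 binds methylated CpG and brings the NuRD deacetylase and remodeling complex. In prostate cancer, methylated promoters are a common lesion.

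All 3 TET genes rose in LN-35, 3 genes of the pathway fell by less than 1.5-fold, and 3 did not pass the test. *TET1* rose 2.91-fold, *TET3* 1.74-fold and *TET2* 1.39-fold, whereas *TDG*, *DNMT3A* and *DNMT1* were 1.28-fold, 1.20-fold and 1.17-fold lower. The call of *DNMT1* was lost when any of 3 libraries was left out, and *MBD2*, *UHRF1* and *DNMT3B* were not called. Calls were made with edgeR's quasi-likelihood test at a Benjamini-Hochberg adjusted p under 0.05, and all 9 genes passed the filter on low counts. In this comparison 71.8% of the 13744 tested genes were called, 36.4% higher and 35.5% lower, so that 6 of 9 called genes (66.7%) is near the background. The median absolute log2 fold change was 0.26 over the 9 genes and 0.61 over all tested genes, a difference that was not tested. Their median log2 fold change was -0.13, and that of all tested genes was -0.01.

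The 9 genes are spread over 7 chromosomes, with positions in GRCh38 from GENCODE release 29. *TET1* (ENSG00000138336) lies at chr10:68560656-68694482, *TET2* (ENSG00000168769) at chr4:105145875-105279816, *TET3* (ENSG00000187605) at chr2:73986404-74108176 and *TDG* (ENSG00000139372) at chr12:103965804-103988874, all on the plus strand. *DNMT3B* (ENSG00000088305) at chr20:32762385-32809356 and *UHRF1* (ENSG00000276043) at chr19:4903080-4962154 are also on the plus strand. On the minus strand are *DNMT1* (ENSG00000130816) at chr19:10133345-10231286, *DNMT3A* (ENSG00000119772) at chr2:25227855-25342590 and *MBD2* (ENSG00000134046) at chr18:54151601-54224788. Counts cover the exons of each gene as a whole, so isoforms are not separated.

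The promoters of the 3 TET genes are shown because these genes moved in the same direction. Each CpG, the dinucleotide in which cytosine can be methylated, is in capitals. Each window runs from 250 bases before to 50 bases after the most upstream RefSeq start site (GRCh38.p14), 5′ to 3′ on the strand of the gene. The windows lie on the plus strand at chr10:68560087-68560386 (*TET1*), chr4:105145625-105145924 (*TET2*) and chr2:73984660-73984959 (*TET3*). The start sites used for *TET1* and *TET3* lie 319 and 1494 bases upstream of the GENCODE starts given above. Their windows therefore end before the GENCODE genes begin.
TET1: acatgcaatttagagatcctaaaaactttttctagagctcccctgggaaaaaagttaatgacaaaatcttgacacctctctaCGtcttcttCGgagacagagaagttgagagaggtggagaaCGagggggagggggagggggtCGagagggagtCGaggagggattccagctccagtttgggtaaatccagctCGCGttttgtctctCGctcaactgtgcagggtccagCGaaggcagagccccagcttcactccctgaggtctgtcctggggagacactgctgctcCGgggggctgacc
TET2: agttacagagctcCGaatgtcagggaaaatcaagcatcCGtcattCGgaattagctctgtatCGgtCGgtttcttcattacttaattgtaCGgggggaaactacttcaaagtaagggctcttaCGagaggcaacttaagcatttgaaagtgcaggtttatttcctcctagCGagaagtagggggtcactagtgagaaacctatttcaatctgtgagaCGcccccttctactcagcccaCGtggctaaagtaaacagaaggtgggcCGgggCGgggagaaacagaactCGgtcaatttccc
TET3: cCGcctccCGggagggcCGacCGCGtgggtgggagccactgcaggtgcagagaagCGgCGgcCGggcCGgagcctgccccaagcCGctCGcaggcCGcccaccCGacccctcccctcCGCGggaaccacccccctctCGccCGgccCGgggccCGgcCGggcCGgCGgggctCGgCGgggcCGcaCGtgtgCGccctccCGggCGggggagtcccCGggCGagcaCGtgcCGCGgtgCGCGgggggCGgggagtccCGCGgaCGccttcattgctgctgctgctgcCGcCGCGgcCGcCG
CpG content differed among them. The *TET1* window held 10 CpG and that of *TET2* 13, against 45 in the *TET3* window. The median was 14 over 35116 promoter windows, which leave out a chromosome. Further start sites of these genes gave windows with 6 and 11 CpG for *TET1*, 35 for *TET2* and 33 for *TET3*. The count table does not tell which start was used.

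*DNMT1* and *UHRF1*, used by replicating cells, are shown with matches to binding sequences of E2F, the transcription factor family of S phase entry, in capitals. The 4 sequences TTTGGCGC, TTTCCCGC, TTTCGCGC and TTTGCCGC were searched on both strands. They differ from each other in the middle bases only, so that no pair can match at the same place on the same strand, while matches on opposite strands may overlap. The *DNMT1* window lies on the minus strand at chr19:10194904-10195203 and the *UHRF1* window on the plus strand at chr19:4909251-4909550.
DNMT1: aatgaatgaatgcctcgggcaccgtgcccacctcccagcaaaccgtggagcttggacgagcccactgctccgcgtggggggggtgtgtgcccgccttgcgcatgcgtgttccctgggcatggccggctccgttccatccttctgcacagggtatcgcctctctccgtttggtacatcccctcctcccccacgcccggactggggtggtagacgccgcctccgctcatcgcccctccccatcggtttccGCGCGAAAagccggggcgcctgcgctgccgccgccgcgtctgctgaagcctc
UHRF1: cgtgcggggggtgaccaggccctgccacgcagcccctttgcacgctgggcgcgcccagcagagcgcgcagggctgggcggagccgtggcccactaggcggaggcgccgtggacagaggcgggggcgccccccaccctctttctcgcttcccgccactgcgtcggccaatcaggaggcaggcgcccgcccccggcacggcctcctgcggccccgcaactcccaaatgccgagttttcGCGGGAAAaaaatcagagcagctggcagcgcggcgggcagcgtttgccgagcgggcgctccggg
In both the match is the reverse complement of a searched sequence. It began 2 bases before the start site of *DNMT1* and 14 bases before that of *UHRF1*. A second *UHRF1* start had TTTCGCGC 160 bases upstream. No window of the other 7 genes held any of the 4 sequences. Of the 35116 windows counted, which leave out a chromosome, 3.32% held at least 1 of them. A match describes letters only, and no binding was measured in these libraries.

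*TET3*, which encodes a dioxygenase active in the zygote and in neurons, was the most abundant TET transcript per length in LN-35. It had 80.7 and 85.9 CPM (counts scaled by library total and TMM factor) in LN-35, against 51.5 and 43.9 CPM in LNCaP. Both LN-35 libraries were above both LNCaP libraries, with a gap wider than the spread within either line. The log2 fold change was 0.80 (adjusted p = 4.75e-08 by edgeR, SE 0.09), and LN-35 over LNCaP was 0.65 in repeat 1 and 0.97 in repeat 2 on this scale.

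*TET1*, best known for its role in embryonic stem cells, was the scarcest of the 9 transcripts per length in both lines. The deposited counts were 74 and 110 in LN-35, against 48 and 29 in LNCaP. Scaled to library size this gave 6.16 and 8.85 CPM in LN-35, against 3.04 and 2.08 CPM in LNCaP. The groups did not overlap, and the spread within each line was wider, relative to the mean, than for the other TET genes. The log2 fold change of 1.54 (adjusted p = 7.40e-05 by edgeR, SE 0.30) had a 95% interval of 0.92 to 2.16, and the 2 repeats gave 1.02 and 2.09.

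*TET2*, mutated in many blood cancers, rose least of the family. Its levels were 62.5 and 57.9 CPM in LN-35, against 46.5 and 40.05 CPM in LNCaP. The lowest LN-35 library was thus above the highest LNCaP library. This gave a log2 fold change of 0.47 (adjusted p = 0.000147 by edgeR, SE 0.10); its interval was 0.27 to 0.68.

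*TDG* starts the repair step that follows TET oxidation, and it fell while the TET genes rose. It had 74.0 and 79.2 CPM in LN-35, against 98.8 and 97.7 CPM in LNCaP. The LNCaP libraries were close together, and both LN-35 libraries lay below them. LN-35 thus differed by -0.36 on the log2 scale (adjusted p = 0.000338 by edgeR, SE 0.08). Processed pseudogenes of *TDG* and *TET1* are annotated in GENCODE release 29 and were not analysed here. None of the 36 values of the 9 genes was fractional, against at least 11.49% of the values in each library in the whole table.

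**Figure D1:**
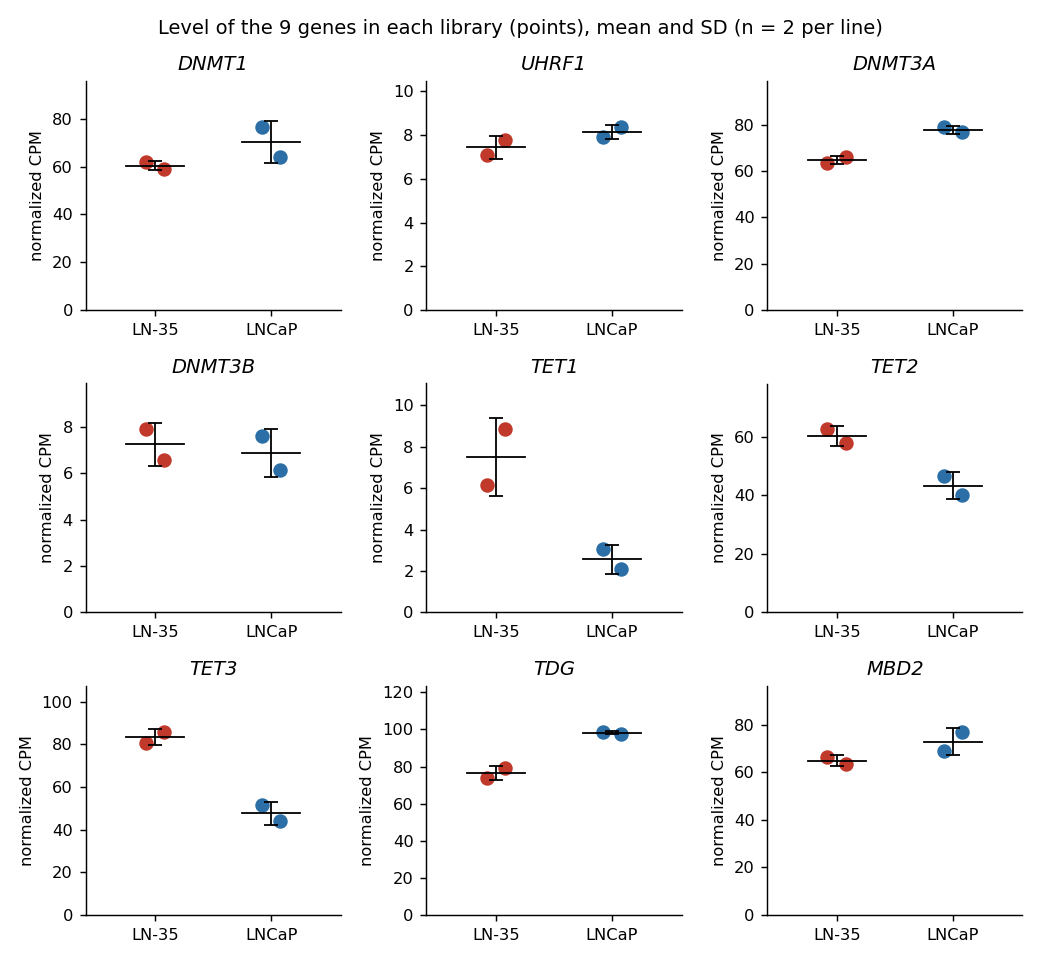
Normalized CPM (vertical axes, each starting at 0) of the 9 genes in LN-35 and LNCaP. Points are libraries, and black lines with bars are the mean and SD of 2 libraries. The LN-35 points of *TET1* (6.16 and 8.85 CPM), *TET2* (62.5 and 57.9 CPM) and *TET3* (80.7 and 85.9 CPM) lie above all LNCaP points, and those of *TDG* (74.0 and 79.2 CPM) lie below.

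The de novo methyltransferase *DNMT3A* was lower in LN-35. It had 63.7 and 66.0 CPM in LN-35, against 79.1 and 76.7 CPM in LNCaP, and the lines did not overlap. The fitted difference was -0.26 on the log2 scale (adjusted p = 0.00666 by edgeR, SE 0.08). Leaving out LN-35 replicate 1 ended the call, at -0.23. Among the alternatives that kept all libraries and tested for any change, adjusted p ranged from 0.000721 (edgeR, library totals alone) to 0.0493 (DESeq2).

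*DNMT3B*, the second de novo enzyme, was far scarcer and did not pass the test. It had 7.91 and 6.60 CPM in LN-35, against 7.61 and 6.16 CPM in LNCaP, the only one of the 9 genes whose libraries overlapped between the lines. Its log2 fold change, 0.07 (adjusted p = 0.791 by edgeR, SE 0.22), had an interval of -0.40 to 0.54. Changes of either sign within this interval were not excluded at this depth. *DNMT3L*, the catalytically inactive partner of the de novo enzymes in germ cells, had no counts in LN-35 and 1 count in LNCaP.

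*DNMT1*, the maintenance enzyme, had 61.8 and 59.0 CPM in LN-35, against 76.6 and 64.1 CPM in LNCaP. The LNCaP libraries lay farther from each other than the lower one lay from the LN-35 libraries, and the lines did not overlap. The difference of -0.22 on the log2 scale (adjusted p = 0.0384 by edgeR, SE 0.09) passed narrowly. Without LNCaP replicate 1 it was -0.09 (edgeR adjusted p = 0.414). Adjusted p also missed the threshold in edgeR when LN-35 replicate 1 (0.0691) or LN-35 replicate 2 (0.174) was left out, with DESeq2 size factors (0.0536), and in DESeq2 itself (0.163). Among the alternatives that kept all libraries and tested for any change, it ranged from 0.00644 (edgeR, library totals alone) to 0.163 (DESeq2). *DNMT1* shares 83 exon bases with *S1PR2*, or 0.847% of its exon length.

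*UHRF1*, which reads hemimethylated CpG and recruits DNMT1, had 7.08 and 7.80 CPM in LN-35, against 7.93 and 8.38 CPM in LNCaP. Both LN-35 libraries were below both LNCaP libraries, but at 85 to 125 counts per library this did not pass the test. *UHRF1* had a log2 fold change of -0.13 (adjusted p = 0.582 by edgeR, SE 0.21), with an interval of -0.56 to 0.30.

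*MBD2* had 66.5 and 63.4 CPM in LN-35, against 68.8 and 77.1 CPM in LNCaP. The lines did not overlap, yet the LNCaP libraries differed from each other more than LN-35 differed from the nearer one. Its fitted difference, -0.17 on the log2 scale (adjusted p = 0.0909 by edgeR, SE 0.09), had an interval of -0.35 to 0.01. *MBD2* was called lower without LNCaP replicate 1 (log2 fold change -0.25) and when library totals alone were used for scaling (-0.24, edgeR adjusted p = 0.0159). Among the alternatives that kept all libraries and tested for any change, adjusted p ranged from that value to 0.277 (DESeq2). Libraries of the lines did not overlap for 8 of the 9 genes, against 85.5% of all tested genes.

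**Figure D2:**
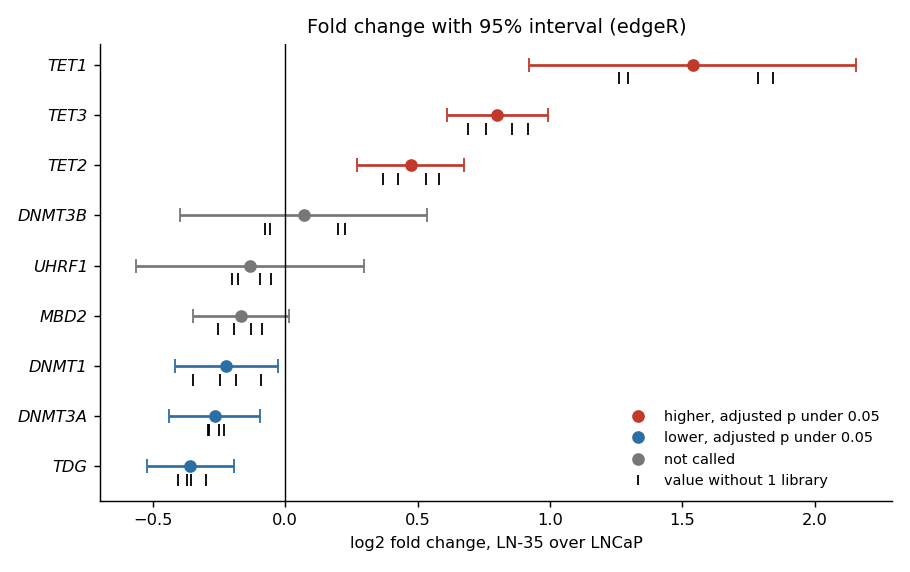
Log2 fold change of LN-35 over LNCaP (horizontal axis) for the 9 genes, with 95% intervals from edgeR; colours give the call and black ticks the values when 1 library was left out. *TET1* (1.54), *TET3* (0.80) and *TET2* (0.47) lie right of 0 with all their ticks, and the ticks of *DNMT3B* fall on both sides of 0.

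When the test asked for a change above 1.5-fold, *TET1* (edgeR glmTreat adjusted p = 0.00144) and *TET3* (0.0098) were called among the 9 genes. At this threshold 38.9% of all tested genes were called, 21.1% higher and 17.8% lower. Of all tested genes, 22.01% had a larger absolute log2 fold change than *TET1*, 40.8% a larger one than *TET3* and 58.5% a larger one than *TET2*. For *TDG* the share was 67.7%, for *DNMT3A* 75.4% and for *DNMT1* 79.1%. The TET genes were higher, and *TDG*, *DNMT3A* and *DNMT1* lower, under each of the 12 alternatives tried, including those of scaling.

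To compare levels between genes, CPM were divided by the length of merged exons in kb (GENCODE release 29). *TDG* was highest, at 15.6 ± 0.752 CPM per kb in LN-35 and 20.03 ± 0.16 in LNCaP (SD, n = 2 each here and below). *MBD2* followed at 11.2 ± 0.382 CPM per kb in LN-35 and 12.6 ± 1.01 in LNCaP. These 2 genes led the order in both lines, with no overlap between them.

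*TET3* and *DNMT1* changed places in the order of per-length levels. *TET3* stood above both *DNMT1* and *DNMT3A* in LN-35, at 6.79 ± 0.301 CPM per kb, and below both in LNCaP, at 3.89 ± 0.437. *DNMT1* had 6.17 ± 0.197 CPM per kb in LN-35 and 7.18 ± 0.908 in LNCaP. *DNMT3A* had 5.39 ± 0.133 CPM per kb in LN-35 and 6.48 ± 0.143 in LNCaP, where its libraries overlapped those of *DNMT1*. The order of *TET3* and *DNMT1* in LN-35 turned round when the longest transcript gave the length, at 7.31 and 11.2 CPM per kb.

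The lower places were taken by *TET2*, *DNMT3B*, *UHRF1* and *TET1*. *TET2* had 3.66 ± 0.198 CPM per kb in LN-35 and 2.63 ± 0.277 in LNCaP. *DNMT3B* (1.57 ± 0.201 CPM per kb in LN-35 and 1.49 ± 0.221 in LNCaP) and *UHRF1* (1.45 ± 0.0997 in LN-35 and 1.59 ± 0.0624 in LNCaP) overlapped within each line and could not be ordered. *TET1* came last at 0.808 ± 0.205 CPM per kb in LN-35 and 0.276 ± 0.0736 in LNCaP.

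The summed per-length level of the TET family was 11.03 and 11.5 CPM per kb in LN-35, against 7.35 and 6.23 in LNCaP. That of the 3 methyltransferases was 13.3 and 12.9 CPM per kb in LN-35, against 16.05 and 14.2 in LNCaP. The TET sum was therefore 0.829 and 0.886 of the methyltransferase sum in LN-35, against 0.458 and 0.438 in LNCaP. With the longest transcript as length these ratios were 0.697 and 0.732 in LN-35, against 0.389 and 0.376 in LNCaP. No test is given for sums over the chosen genes.

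Within the TET family *TET3* gave the largest share of the per-length level in all 4 libraries. It made up 59.6% and 61.0% of the family in LN-35, against 57.1% and 57.4% in LNCaP. The share of *TET2* was 34.4% and 30.7% in LN-35, against 38.4% and 39.0% in LNCaP, and that of *TET1* 6.01% and 8.31% in LN-35, against 4.46% and 3.59% in LNCaP. By longest transcript, *TET2* and *TET3* stood almost level in LNCaP, at means of 48.8% and 48.0%. Among methyltransferases *DNMT1* held 47.4% and 46.6% in LN-35, against 48.7% and 45.9% in LNCaP, and the libraries of the lines overlapped. The ratio of *DNMT3A* to *DNMT3B* was 3.10 and 3.85 in LN-35, against 4.003 and 4.79 in LNCaP.

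**Figure D3:**
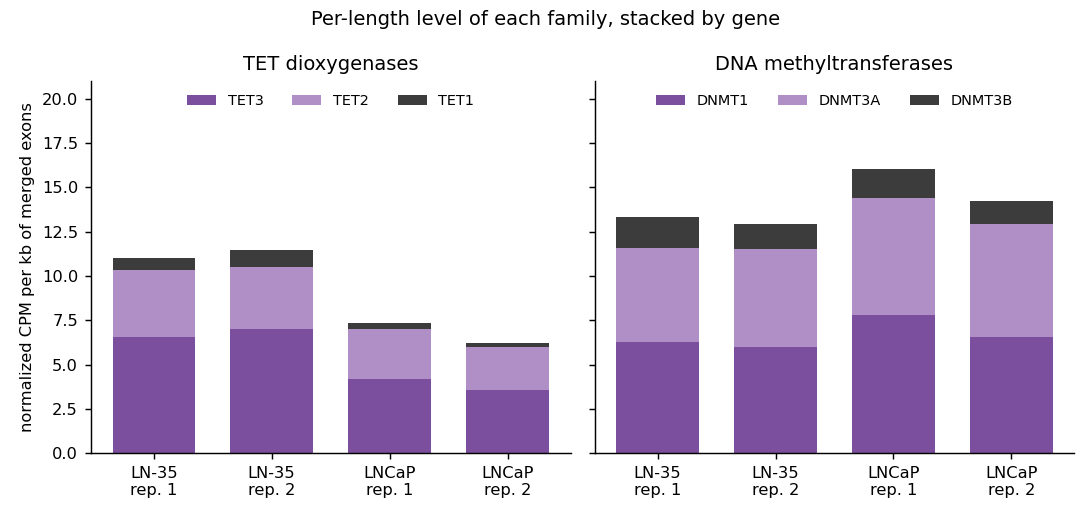
Normalized CPM per kb of merged exons (vertical axis) in each library, stacked by gene for the TET family on the left and the methyltransferases on the right. The TET bars reach 11.03 and 11.5 CPM per kb in LN-35 against 7.35 and 6.23 in LNCaP, whereas the methyltransferase bars reach 13.3 and 12.9 in LN-35 against 16.05 and 14.2 in LNCaP.

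Among genes whose products act on or with the TET enzymes, 3 changed more than any TET gene did. *CXXC4*, whose product IDAX binds CpG-rich DNA and lowers TET2 protein, had 13.2 and 17.4 CPM in LN-35, against 0.254 and 0.645 CPM in LNCaP. Its family member *CXXC5* moved the opposite way, at 2.66 and 2.57 CPM in LN-35, against 47.8 and 51.8 CPM in LNCaP. *WT1*, a transcription factor that can bring TET2 to DNA, had 7.08 and 9.41 CPM in LN-35, against 0.381 and 0.215 CPM in LNCaP. These 3 genes had log2 fold changes of 5.09 (SE 0.34), -4.24 (SE 0.16) and 4.73 (SE 0.43) and edgeR adjusted p between 6.63e-17 and 9.03e-10. *IDH1* and *IDH2*, whose enzymes make 2-oxoglutarate, were 1.94-fold and 2.22-fold lower, with 407 ± 9.01 and 41.0 ± 4.24 CPM in LN-35 against 788 ± 13.5 and 90.8 ± 0.578 CPM in LNCaP. *IDH3A*, a subunit gene of a further enzyme that makes 2-oxoglutarate, went the other way. It was 1.37-fold higher, with 74.1 ± 1.23 CPM in LN-35 against 54.3 ± 3.28 CPM in LNCaP (edgeR adjusted p = 7.43e-05). *OGT*, encoding the sugar transferase that binds TET proteins, did not pass the test (log2 fold change 0.09, edgeR adjusted p = 0.271). Of 22 tested TET partners and repair genes, 8 were higher and 6 lower, with a median log2 fold change of -0.01. Called were 63.6% of them, beside 71.8% of all tested genes. The ligase gene *LIG3* was 1.32-fold higher.

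Cofactors of methylation upkeep moved in both directions. Of 16 tested, 6 were higher and 4 lower, with a median log2 fold change of -0.05. The share called was 62.5%, beside 71.8% of all tested genes. *HELLS*, the chromatin remodeler that lets methyltransferases reach packed DNA, had 26.6 and 22.8 CPM in LN-35, against 10.7 and 10.9 CPM in LNCaP. *TRIM28*, the corepressor of zinc finger proteins at silenced repeats, and *SETD2*, whose histone mark recruits the de novo enzymes in gene bodies, rose 1.44-fold and 1.40-fold. *CDCA7L*, a paralog of the HELLS partner *CDCA7*, had 0 and 5 counts in LN-35, against 367 and 374 counts in LNCaP. *DMAP1*, a DNMT1 binding protein gene, and *ZBTB24* were 1.57-fold and 1.28-fold lower.

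The other readers of methylated DNA and NuRD subunits included 5 higher and 9 lower genes of 20 tested, with a median of -0.15. With 70% called, they were near the 71.8% of all tested genes. The methyl-CpG binding zinc finger gene *ZBTB4* had 101 ± 3.97 CPM in LN-35 and 53.2 ± 1.67 CPM in LNCaP. Among partners of MBD2 in NuRD, *GATAD2B* and *HDAC1* were 1.83-fold and 1.53-fold higher, while *CHD3*, *MTA3* and *MTA2* were 2.46-fold, 1.91-fold and 1.47-fold lower. *CHD3*, a NuRD ATPase gene, stood at 114 ± 3.06 CPM in LN-35 and 280 ± 14.3 CPM in LNCaP.

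Genes of the methionine cycle and folate list were more often lower. The list mixes genes that supply the methyl donor with others that use it or draw from the cycle, so its count is not one of suppliers. Of 20 tested, 4 were higher and 12 lower, with a median log2 fold change of -0.60. That is 80% called, against 71.8% of all tested genes. The folate carrier gene *SLC19A1* had 11.3 and 9.17 CPM in LN-35, against 43.9 and 39.9 CPM in LNCaP. *SHMT1*, a cytosolic serine hydroxymethyltransferase gene, and *CBS*, which draws homocysteine out of the cycle, were 3.67-fold and 2.25-fold lower. *MTHFD2*, the mitochondrial folate enzyme gene, *MTR*, encoding methionine synthase, and *MAT2B*, a subunit gene of methionine adenosyltransferase, were 1.86-fold, 1.69-fold and 1.49-fold higher.

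S phase genes were counted because *DNMT1* and *UHRF1* are used during replication. Of 33 tested, 6 were higher and 8 lower, or 42.4% called against 71.8% of all tested genes. The median log2 fold change of the 33 was -0.19, beside -0.22 for *DNMT1* and -0.13 for *UHRF1*. *CDC6*, *TYMS* and *CCNE1* were 3.59-fold, 2.13-fold and 3.97-fold lower, and *MCM7*, *MCM5* and *E2F2* were 1.38-fold, 1.73-fold and 2.29-fold higher. The part of cell cycling in the levels of *DNMT1* and *UHRF1* was not tested.

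**Figure D4:**
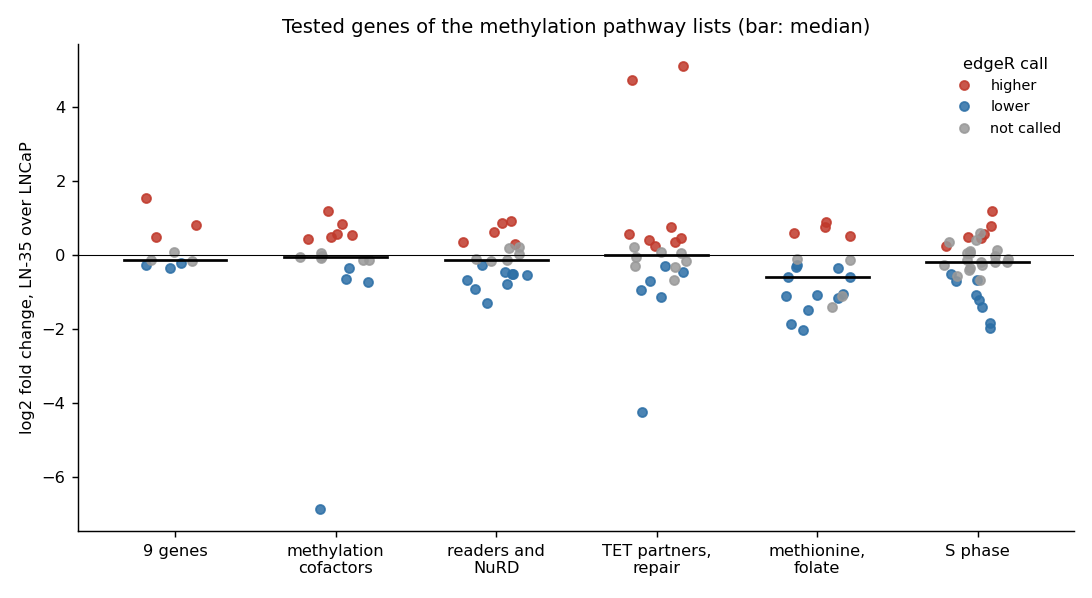
Log2 fold change of LN-35 over LNCaP (vertical axis) for the tested genes of each list, 1 point per gene coloured by its call, with black bars at the medians. The 9 genes lie between -0.36 and 1.54, and the methionine and folate list has the lowest median of the lists plotted (-0.60).

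Genes that DNA methylation is known to silence were counted as well, although no methylation was measured in these libraries. Of 40 germline and cancer-testis genes 20 had enough counts to be tested. Against 71.8% of all tested genes, 85% of these 20 were called, 6 higher and 11 lower. Their median log2 fold change was -0.98, also with the 4 genes silent in 1 line set to their bound, but genes with almost no counts in either line were not tested, and one silent in a single line passed the filter because the other line expressed it. *MAGEA4* had 189 and 207 CPM in LN-35, against 0.507 and 0.358 CPM in LNCaP, and *CTAG2* had 57.3 and 54.5 CPM in LN-35, against 0.634 and 0.358 CPM in LNCaP. *SSX2* rose likewise, to 26.7 ± 2.73 CPM in LN-35, against 0.27 ± 0.0232 CPM in LNCaP. The reverse held for *MAGEA10*, with 1 count over both LN-35 libraries and 64.8 ± 2.77 CPM in LNCaP, so that LNCaP exceeded LN-35 by a ratio of 1582 (95% counting interval 284 to 62500), and for *GAGE2A*, with 0.166 and 0.161 CPM in LN-35, against 29.4 and 43.4 CPM in LNCaP. *MAGEA3* fell 1.88-fold. These families share sequence, so their counts are uncertain.

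Imprinted genes, whose parental methylation DNMT1 maintains, also changed in both directions. Of 19 tested, 8 were higher and 8 lower, with a median of 0.00 on the log2 scale. This makes 84.2% called, against 71.8% of all tested genes. The neighbouring genes *PEG10* and *SGCE* had 892 ± 21.7 and 115 ± 5.00 CPM in LN-35, against 16.7 ± 4.13 and 2.74 ± 0.43 CPM in LNCaP, and *MEST* rose 7.13-fold. *GRB10*, *SNRPN* and *KCNQ1* were 2.61-fold, 2.79-fold and 16.6-fold lower. Of 13 tested genes with promoters often methylated in prostate cancer, 6 were higher and 3 lower (69.2% called), with a median of -0.19. The repair gene *MGMT* had 0.333 and 0.0804 CPM in LN-35, against 31.4 and 34.4 CPM in LNCaP, and *RASSF5* and *CDH1* were 2.49-fold and 1.66-fold lower. *RARB*, a retinoic acid receptor gene, was 4.41-fold higher. *PTGS2* had 3.19 ± 0.269 CPM in LN-35 and 1 count in LNCaP (ratio 94.8, counting interval 16.5 to 3793). *GSTP1*, the classical methylated gene of prostate cancer, had 4 counts in LN-35 and 9 in LNCaP and was not tested.

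**Figure D5:**
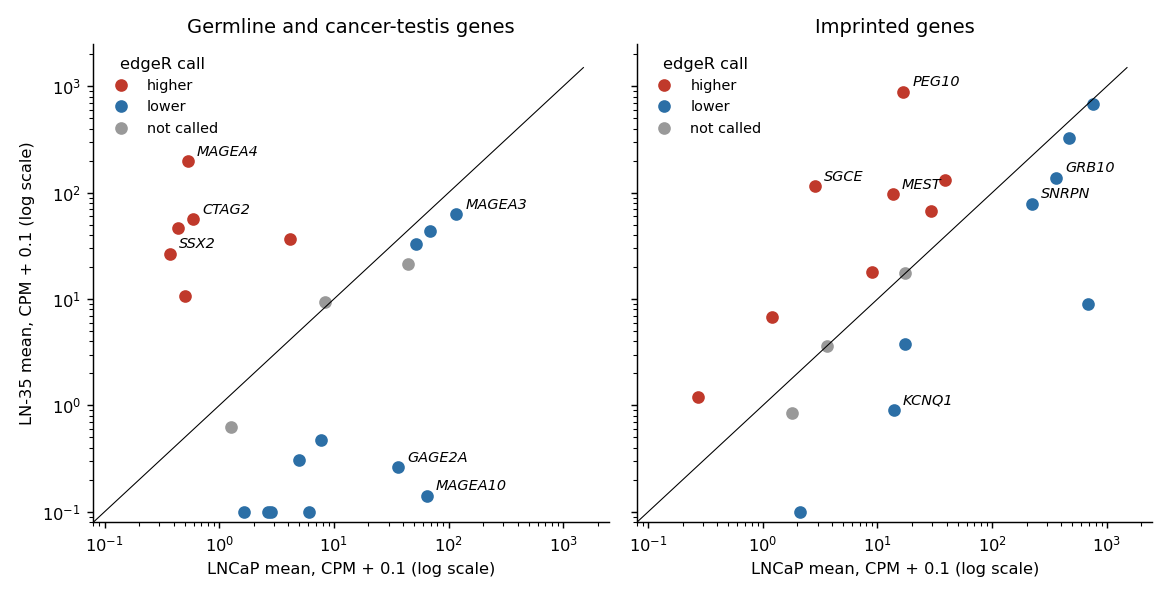
Mean level in LN-35 (vertical axis) against LNCaP (horizontal axis), both as CPM + 0.1 on log scales, for tested germline genes on the left and imprinted genes on the right. The line marks equal levels. *MAGEA4* and *PEG10* lie far above it and *MAGEA10* far below.

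Library totals ranged from 12225169 to 12892069 counts in LN-35 and from 13598449 to 15333715 counts in LNCaP. Replicates correlated at 0.988 in LN-35 and 0.99 in LNCaP across log2 CPM of tested genes, and libraries of different lines at 0.738 to 0.742, where genes are not independent. Mitochondrially encoded genes took 13.8% and 14.8% of counts in LN-35, against 9.53% and 9.39% in LNCaP. With these genes left out of the library totals, the log2 fold changes of the TET genes were 1.55, 0.48 and 0.81 for *TET1*, *TET2* and *TET3*, close to the values above. The luminal prostate markers *HOXB13* (96.4 ± 1.19 CPM in LN-35 and 188 ± 4.54 in LNCaP) and *FOLH1* (1356 ± 11.9 CPM in LN-35 and 1478 ± 65.8 in LNCaP) had counts in both lines. *HOXB13* was 1.95-fold lower in LN-35. Of the 14 luminal markers listed, 4 were higher and 9 lower, or 92.9% called against 71.8% of all tested genes. All 9 tested neuroendocrine markers were higher, among them *SYP* (47.4 CPM in LN-35 and 0.937 in LNCaP), *ENO2* (133 and 56.9) and *CHGA*, which was at least 293-fold higher (29.6 CPM in LN-35 and 0 counts in LNCaP). The androgen targets *KLK3* (6.14 CPM in LN-35 and 504 in LNCaP) and *TMPRSS2* (11.8 and 445) were lower. Of 16 markers of other cell types, 10 were too scarce to be tested, and *CD3E* and *CDH5* were at 0 in all libraries. Of the 6 tested, 3 rose and 1 fell, or 66.7% called against 71.8% of all tested genes. *DCN* was at least 79.6-fold higher (78 and 119 counts in LN-35, none in LNCaP). *LUM* and *COL3A1* were 4.33-fold and 4.31-fold higher, and *VWF* was 11.3-fold lower. The 16 markers summed to 57.4 and 59.3 CPM in LN-35, against 61.1 and 55.7 CPM in LNCaP, and without the 2 abundant ones, *COL1A1* and *CD68*, to 12.3 and 17.9 CPM in LN-35, against 7.29 and 8.17 CPM in LNCaP. Their part in the levels of the 9 genes was not tested.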

How the data were processed

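RNA-seq was performed by the authors on 2 LN-35 and 2 LNCaP libraries (total RNA by TRIzol, NEBNext Ultra RNA kit, per the labels). The deposited table holds an estimated count per gene, not scaled between libraries. Per the submitters' processing notes, tools included featureCounts 1.5.0-p3 and HISAT2 2.0.5, and the build was hg38; strand use in counting is not stated there. At least 11.49% of the deposited values in each library were not whole, and counts were rounded. Gene symbols matched 20304 of 20332 identifiers.

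Genes were kept by filterByExpr (minimum count 10), leaving 13744. Groups were compared with edgeR 4.0.16 (R 4.3.3) by glmQLFit with robust=TRUE and glmQLFTest, design ~ group, two-sided, after TMM scaling. The SE is the absolute log2 fold change divided by the square root of F, and intervals are at 95%. Ratios with 1 to 3 counts in a group carry exact counting intervals, which cover counting error only. Alternatives were DESeq2 1.42.0, its size factors or plain library totals in edgeR, no or a stricter filter, a replicate block, totals without mitochondrial genes, a test against 1.5-fold, longest-transcript lengths, and each library left out. Lengths and positions came from GENCODE release 29 (GRCh38, the assembly of hg38), and promoters from RefSeq (GRCh38.p14), where all 9 genes matched. Gene lists rest on textbook knowledge. Genes named from them were up to 3 called per direction with the smallest adjusted p, besides KLK3, TMPRSS2, SYP, CHGA and ENO2. Some genes that this rule names are not reported here. OGT, IDH3A, DNMT3L, GSTP1, CDCA7, HOXB13, FOLH1, COL1A1, CD68, DCN, CD3E and CDH5 were named beyond that rule after their values were seen. The 9 genes and all lists were chosen with earlier results of these data known. A batch tag gives each line a repeat 1 and a repeat 2, whose deviations from the group means correlated at 0.00839 across genes.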

Additional observations from a re-analysis of the deposited data

How the results depend on the processing

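The 3 TET genes were higher under all 12 alternatives, and *TET1* and *TET3* were called in each. Against a 1.5-fold change (glmTreat), *TET2* (0.47), *TDG* (-0.36), *DNMT3A* (-0.26) and *DNMT1* (-0.22) lost their calls, leaving 0 of the 9 genes lower, and 2904 genes were called higher and 2445 lower over the table. This follows from the test asked. *DNMT1* also lost its call with DESeq2 size factors (-0.20) and with DESeq2 (-0.20), and *MBD2* gained one with library totals alone (-0.24). The cause was not tested. When 1 library was left out, log2 fold changes ranged from -0.348 to -0.091 for *DNMT1*, from -0.291 to -0.231 for *DNMT3A* and from -0.254 to -0.0882 for *MBD2*, and the number of the 9 genes called lower from 1 to 3. *DNMT3B* changed sign under 3 alternatives and was called in none. A replicate block on the repeat number, given as a batch in the labels, changed no call of the 9 genes, with *TET1* at 1.53, *TET2* at 0.48, *TET3* at 0.80, *TDG* at -0.36, *DNMT3A* at -0.26 and *DNMT1* at -0.22. With the block, 4862 genes were called higher and 4755 lower. With the longest transcript as length, levels in LN-35 were 11.2 CPM per kb for *DNMT1*, 6.82 for *DNMT3A*, 1.73 for *UHRF1*, 5.92 for *TET2*, 7.31 for *TET3*, 12.5 for *MBD2* and 23.6 for *TDG*. With 2 libraries per line, depth and spread limit what can be said of *DNMT3B*, *UHRF1* and *TET1*, each with at most 125 counts in a library.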
